A study of Homo sapiens with 5 samples.

Results

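Glycolysis and hypoxia response genes were followed through 5 libraries of MDA-MB-231, a long-established cell line from a human triple-negative breast tumour. The set holds 35 genes of 10596 in the table: 18 enzymes of glycolysis and its control, 4 carriers of glucose or lactate, and 13 genes of oxygen sensing or of the wider hypoxia response. It was drawn up by gene name, with earlier results of these data known, and all 35 had a row in the table. Each gene was read from its transcript row with the highest mean over the libraries.

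The groups were siNT (control siRNA, 48 h), siSET (siRNA against SET, 48 h), siCIP2A (siRNA against CIP2A, with no time in its own treatment label, though the protocol gives 48 h for both siRNAs), PBS (vehicle, 12 h) and OP449 (the SET antagonist at 1 µM, 12 h). SET and CIP2A are inhibitors of the phosphatase PP2A. Each group was 1 library from 1 cell line, so conditions could not be tested against each other and differences have no replicate check. SET and CIP2A lie outside the rows used here, so silencing was not checked.

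In glycolysis, glucose enters through SLC2A-family carriers, is phosphorylated by hexokinase, and is turned into pyruvate by a chain of cytosolic enzymes. Lactate dehydrogenase converts pyruvate to lactate, which leaves through SLC16A-family carriers. When oxygen is low, the transcription factor subunit HIF1A escapes hydroxylation by the EGLN enzymes and, with its partner ARNT, induces many of these genes. MYC also binds a number of glycolysis promoters. Several members, such as LDHB, PDK2 and EGLN2, are part of the pathway without being classic hypoxia-induced genes.

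Values are scaled counts per transcript, the authors' own scale, from which whole reads could be recovered. Over the gene table these came to 3641329 reads in siSET, the shallowest library, and to between 4762701 and 5602224 in the others. The mesenchymal marker VIM stood between 15670 and 20867 scaled counts. Of the luminal markers, PGR was at 0 in all libraries and FOXA1 at 1.29 or below, whereas KRT19 stood between 4275 and 5998. ERBB2 stood between 1049 and 1179, EPCAM between 139 and 282, GATA3 between 133 and 250 and CDH1 between 12.9 and 56.7. Of the leukocyte markers, PTPRC, CD79A and CD3E were at 3.42 or below, and LCP1 lay between 29.5 and 117. In bulk RNA, fewer expressing cells and less RNA per cell cannot be told apart.

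The enzymes ENO1, PKM2, GAPDH, LDHA and ALDOA were the most abundant members in every library. Per kilobase of transcript and averaged over the 5 libraries, ENO1, the main enolase, stood at 20070 scaled counts and PKM2, the row of pyruvate kinase M, at 17192. GAPDH followed at 15640, the aldolase ALDOA at 10809 and lactate dehydrogenase A at 10513. PGAM1, which acts between GAPDH and enolase, stood far lower, at 314. The lowest of the enzymes past the floor of 50 scaled counts was ALDOC, the brain-type aldolase, at 81.2 per kilobase. ENO3, the muscle enolase, had between 7 and 34 reads per library and stayed under the floor. GPI had no transcript length and is not placed on this scale.

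**Figure D1:**
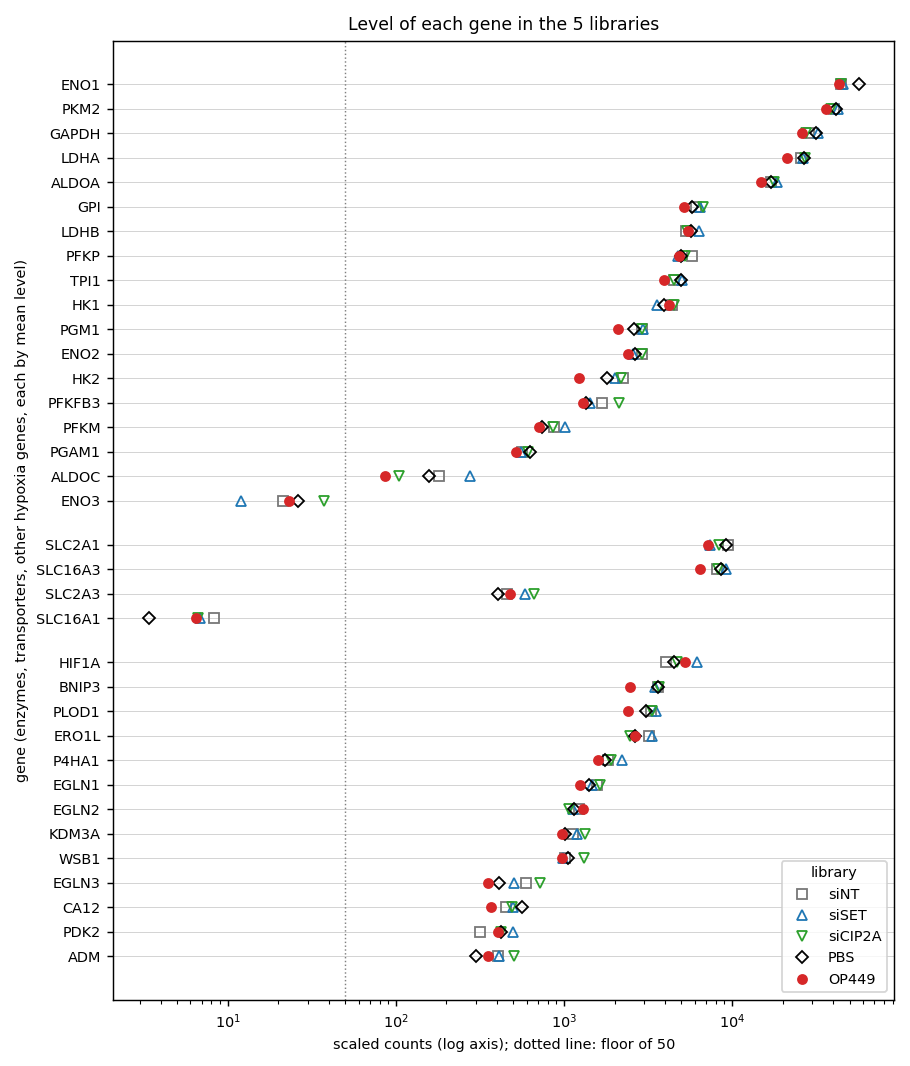
Scaled counts (log axis) of the 35 genes in the 5 libraries, 1 symbol per library, grouped into enzymes, transporters and other hypoxia genes and ordered by mean. The filled OP449 symbol is the leftmost of the 5 for 24 of the 33 genes above the floor, among them LDHA, HK2, BNIP3 and PLOD1.

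Most enzymes varied little. The ratio of the highest to the lowest library was 1.18 for PKM2, 1.19 for LDHB, 1.21 for ENO2 and 1.22 for PFKP. It reached 1.64 for PFKFB3, 1.84 for HK2 and 3.21 for ALDOC. These 3 enzymes therefore carried the widest differences among the 17 enzymes past the floor.

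The first step is the phosphorylation of glucose. HK1, the constitutive hexokinase, stood at 4372 scaled counts in siNT, 3572 in siSET and 4499 in siCIP2A, with 3937 in PBS and 4214 in OP449. HK2, the inducible hexokinase, stood at 2252 in siNT, 2003 in siSET and 2185 in siCIP2A, with 1791 in PBS and 1224 in OP449. HK2 was thus lowest in OP449, 1.46-fold below PBS, with a log2 fold of -0.55 [-0.67 to -0.43], whereas HK1 was slightly above PBS there, at 0.10 [0.03 to 0.17]. Brackets give the 95% exact interval from read counting alone, on the log2 scale, and leave out variation between cultures. Per kilobase, the HK1 to HK2 ratio lay between 2.85 and 3.52 in the other 4 libraries and was 5.51 in OP449.

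The next steps isomerize and phosphorylate fructose 6-phosphate. GPI, the isomerase, lay between 5152 in OP449 and 6686 in siCIP2A. Among the phosphofructokinases, PFKP stood at 5808 in siNT and 4773 in siSET, a log2 fold of -0.28, and PFKM at 872 and 1008, a log2 fold of 0.21 [0.05 to 0.37]. The ratio of PFKP to PFKM per kilobase was 5.75 in siSET and between 7.46 and 8.27 in the other libraries.

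PFKFB3 makes fructose 2,6-bisphosphate, an activator of phosphofructokinase. It stood at 1686 in siNT, 1420 in siSET and 2115 in siCIP2A, with 1348 in PBS and 1291 in OP449. The siCIP2A library was the highest, at 0.33 [0.23 to 0.43] against siNT. The siSET library was below siNT, at -0.25 [-0.37 to -0.12], but at 0.08 against PBS, since siNT itself stood above PBS by 0.32 [0.21 to 0.44].

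ALDOC moved the most of the members past the floor. It stood at 180 scaled counts in siNT (152 reads), 277 in siSET (162 reads) and 104 in siCIP2A (94 reads), with 158 in PBS (139 reads) and 86.3 in OP449 (67 reads). The siSET library was the highest and OP449 the lowest. The log2 fold was 0.62 [0.29 to 0.95] in siSET and -0.79 [-1.18 to -0.41] in siCIP2A, both against siNT, and -0.86 [-1.31 to -0.44] in OP449 against PBS. Against PBS the siRNA libraries stood at 0.81 and -0.60. ALDOA, its abundant relative, moved far less, at 0.13 in siSET, 0.06 in siCIP2A and -0.21 in OP449. On hg19 the ALDOC transcript spans chromosome 17 from 26900134 to 26903951 on the minus strand.

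The promoters of the 3 members with the lowest OP449 to PBS ratio are shown to set these genes beside the DNA letters that HIF and MYC can read. ALDOC and CA12 were at least 1.5-fold lower, and BNIP3, just short of that, was added after its value was seen. Each runs from 250 bases before to 50 bases after a start site, 5′ to 3′, from RefSeq on GRCh38.p14. Capitals mark ACGTG and GCGTG, the core of the hypoxia response element, on either strand, where they read CACGT and CACGC. Where ACGTG and CACGT overlap they form CACGTG, the E-box that MYC and MAX bind. The ALDOC promoter lies at chr17:28576846-28577145, that of CA12 at chr15:63381797-63382096 and that of BNIP3 at chr10:131981874-131982173, all on the minus strand.
ALDOC: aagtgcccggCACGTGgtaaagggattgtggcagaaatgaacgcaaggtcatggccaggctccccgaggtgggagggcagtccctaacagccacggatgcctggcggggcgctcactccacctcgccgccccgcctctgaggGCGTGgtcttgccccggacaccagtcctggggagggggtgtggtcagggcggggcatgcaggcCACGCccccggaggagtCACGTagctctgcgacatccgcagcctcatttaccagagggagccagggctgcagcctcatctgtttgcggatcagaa
CA12: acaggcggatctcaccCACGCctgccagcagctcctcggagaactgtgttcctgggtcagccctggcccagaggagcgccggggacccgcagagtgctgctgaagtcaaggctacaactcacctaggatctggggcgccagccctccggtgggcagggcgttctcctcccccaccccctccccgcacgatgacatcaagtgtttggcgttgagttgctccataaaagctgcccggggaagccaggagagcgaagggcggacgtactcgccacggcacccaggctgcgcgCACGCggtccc
BNIP3: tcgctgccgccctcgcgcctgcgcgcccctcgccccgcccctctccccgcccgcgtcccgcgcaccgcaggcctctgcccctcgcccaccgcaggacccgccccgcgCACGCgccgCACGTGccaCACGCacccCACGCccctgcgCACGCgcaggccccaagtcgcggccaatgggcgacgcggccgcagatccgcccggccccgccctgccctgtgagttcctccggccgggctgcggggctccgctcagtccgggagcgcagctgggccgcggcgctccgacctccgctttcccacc

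ALDOC held 5 matches and BNIP3 held 6, each with 1 E-box, and CA12 held 2 with no E-box. Each E-box is counted as 2 matches, since it reads as a core on both strands. RefSeq promoters were found for 33 members, all but SLC2A3 and SLC16A1, with 66 start sites between them. Of those 66 promoters, 63.6% held a core match, against 61.5% of 7544 promoters of genes with a mean of at least 50 and 48.4% of 35093 promoters in all. The E-box letters were in 10 of the 66, or 15.2%, against 9.17% and 7.26%. Those 10 promoters belong to ALDOA, ALDOC, GAPDH, HK2, LDHA, PFKFB3, EGLN2, BNIP3, PDK2 and WSB1. Counted by gene, 31 of 33 members held a core match at any start site, or 93.9%, against 71.2% of 5201 genes with a mean of at least 50. For the E-box the shares were 30.3% and 12.4%. The members had 66 start sites for 33 genes and the others 7544 for 5201, and a gene with more starts has more windows to match. Windows of 1 gene can overlap, and a match is a description of these letters and not a bound site. PGAM1 and EGLN3 had no match in this window.

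Further down the pathway, TPI1, which interconverts the triose phosphates, stood at 4487 in siNT, 5050 in siSET and 4518 in siCIP2A, with 4945 in PBS and 3959 in OP449. Its log2 fold in OP449 was -0.32 [-0.39 to -0.25], and that of GAPDH, the next enzyme, was -0.26 [-0.29 to -0.23]. TPI1 overlaps SPSB2 on the other strand, which had a mean of 114 scaled counts. PGAM1, the mutase, was at -0.28 [-0.47 to -0.09] in OP449 and lay between 518 and 628 in all libraries. PGAM1, GAPDH and ENO1 have processed pseudogenes, and the sources used here do not say how shared reads were counted.

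ENO1 stood at 44587 in siNT, 45743 in siSET and 44720 in siCIP2A, with 56791 in PBS and 43473 in OP449. The PBS library was the one that stood apart, and the other 4 lay within a narrow range. The log2 fold of -0.39 [-0.41 to -0.37] in OP449 was therefore matched by -0.35 [-0.37 to -0.33] in siNT against the same PBS library. ENO2, the neuronal enolase, was at -0.13 in OP449 and at 0.13 in siNT.

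PKM2 stood at 36326 in OP449, below its range of 38497 to 42843 in the other libraries. The 3 transcript rows of this gene held nearly the same counts, so its splice forms are not told apart here. LDHA, which favours lactate formation, stood at 25533 in siNT, 26264 in siSET and 27029 in siCIP2A, with 26955 in PBS and 21213 in OP449. OP449 was the lowest, at -0.35 [-0.37 to -0.32] against PBS. LDHB, the heart-type subunit, was at -0.07 [-0.13 to -0.01] there and was highest in siSET, at 6340 against 5339 in siNT. The ratio of LDHA to LDHB per kilobase was 2.10 in OP449 and 2.23 to 2.70 in the others. PGM1, which links glycolysis to glycogen, was lowest in OP449 as well, at 2096 against 2614 to 2961 elsewhere.

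Summed over the 18 enzymes, glycolysis took 3.11% of all recovered reads in siNT, 3.26% in siSET and 3.13% in siCIP2A, with 3.34% in PBS and 2.84% in OP449. The 95% exact Clopper-Pearson intervals ran from 2.82% to 2.85% in OP449 and from 3.33% to 3.36% in PBS. Without ENO1, a step added after its values were seen, the share was 2.40% in siNT, 2.53% in siSET and 2.41% in siCIP2A, with 2.43% in PBS and 2.13% in OP449. OP449 was the lowest library with and without ENO1, and PBS was the highest only with it.

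**Figure D2:**
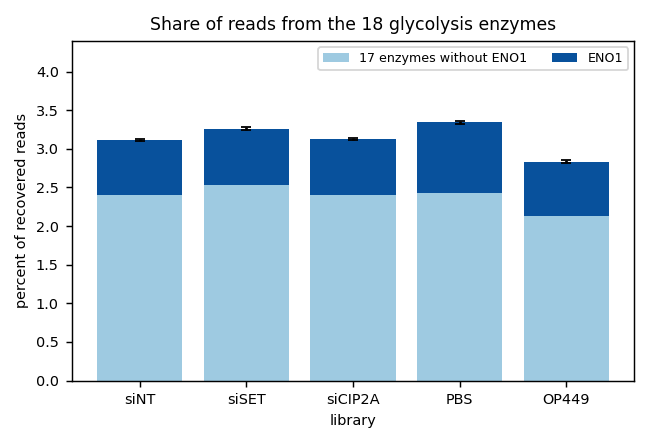
Percent of each library's recovered reads that came from the 18 enzymes, split into ENO1 (dark) and the other 17 (light), with the 95% counting interval of the total as a bar. OP449 is lowest at 2.84%, and the ENO1 part is largest in PBS, at 0.909%, against 0.709% to 0.734% in the other libraries.

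Among the carriers, SLC2A1, the basal glucose transporter GLUT1, stood at 9394 in siNT, 7369 in siSET and 8383 in siCIP2A, with 9223 in PBS and 7191 in OP449. It was below its control in all 3 treated libraries, at -0.35 [-0.40 to -0.30] in siSET, -0.16 [-0.21 to -0.12] in siCIP2A and -0.36 [-0.41 to -0.31] in OP449. The first 2 share the siNT control. Against PBS, siSET stood at -0.32 and siCIP2A at -0.14.

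SLC2A3, the high-affinity glucose transporter GLUT3, went the other way. It stood at 460 in siNT, 590 in siSET and 663 in siCIP2A, with 407 in PBS and 478 in OP449. Its log2 folds were 0.36 [0.15 to 0.57], 0.53 [0.34 to 0.71] and 0.23 [0.02 to 0.45] in siSET, siCIP2A and OP449. Per kilobase, SLC2A1 exceeded SLC2A3 by 24.2-fold in PBS and 21.8-fold in siNT, against 13.3-fold in siSET, 13.5-fold in siCIP2A and 16.1-fold in OP449. SLC2A3 has a close relative, SLC2A14, which stood at 8.55 scaled counts or below in all libraries.

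Of the lactate carriers, SLC16A3, the exporter MCT4, stood at 8132 in siNT, 9227 in siSET and 8296 in siCIP2A, with 8578 in PBS and 6456 in OP449. OP449 was again the lowest, at -0.41 [-0.46 to -0.36] against PBS. SLC16A1, which encodes MCT1, had between 3 and 7 reads per library, at or little above the limit of 3 reads that a count of 0 allows, and no fold was read from it.

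HIF1A, the oxygen-regulated subunit, stood at 4018 in siNT, 6194 in siSET and 4683 in siCIP2A, with 4531 in PBS and 5272 in OP449. It was highest in siSET, 1.54-fold above siNT at 0.62 [0.56 to 0.69]. It was above its control in siCIP2A as well, at 0.22 [0.16 to 0.29], and in OP449, at 0.22 [0.16 to 0.28]. The siNT library was the lowest, at -0.17 [-0.24 to -0.11] against PBS. Against PBS the siSET value was 0.45, below 1.5-fold. On hg19 the HIF1A transcript spans chromosome 14 from 62162119 to 62214977. ARNT, the partner of HIF1A, stood at 636 in siNT, 347 in siSET and 515 in siCIP2A, with 550 in PBS and 633 in OP449. It was lowest in siSET, at -0.87 [-1.11 to -0.64] against siNT and -0.66 against PBS.

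The EGLN hydroxylases mark HIF1A for destruction. EGLN3, the most hypoxia-inducible of them, stood at 593 in siNT, 505 in siSET and 724 in siCIP2A, with 410 in PBS and 354 in OP449. All 3 siRNA libraries were above both 12-hour libraries. The log2 fold between the controls, siNT against PBS, was 0.53 [0.33 to 0.73], larger than that of any of the 3 treatments for this gene. EGLN1 was at -0.18 [-0.30 to -0.05] in OP449, and EGLN2 at 0.18 [0.05 to 0.31] there and -0.20 [-0.33 to -0.08] in siCIP2A.

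Among hypoxia-induced genes, BNIP3, a mitophagy receptor, stood at 3637 in siNT, 3474 in siSET and 3685 in siCIP2A, with 3618 in PBS and 2459 in OP449. The first 4 were close together and OP449 stood below them, at -0.56 [-0.64 to -0.47] against PBS. Its transcript spans chromosome 10 from 133781204 to 133795435 on hg19. CA12, a membrane carbonic anhydrase, stood at 449 in siNT, 496 in siSET and 490 in siCIP2A, with 563 in PBS and 368 in OP449. OP449 was 1.53-fold below PBS, at -0.61 [-0.83 to -0.40], and siNT was also below PBS, at -0.33 [-0.52 to -0.13]. With the libraries rescaled to equal totals, CA12 was at -0.58 in OP449, just under 1.5-fold. The CA12 transcript spans chromosome 15 from 63615731 to 63674075.

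The collagen-modifying hydroxylases were above the control in siSET and below it in OP449, and differed in size. PLOD1, a lysyl hydroxylase, stood at 3292 in siNT, 3519 in siSET and 3319 in siCIP2A, with 3083 in PBS and 2395 in OP449, with OP449 at -0.36 [-0.45 to -0.28]. P4HA1, a prolyl hydroxylase subunit, was highest in siSET, at 2220 against 1836 in siNT, and was at -0.15 [-0.26 to -0.04] in OP449. ERO1L, now named ERO1A, an oxidase of the endoplasmic reticulum, was at 0.00 [-0.08 to 0.09] in OP449. It was lower in siCIP2A, at -0.38 [-0.46 to -0.30] against siNT but at -0.09 against PBS.

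ADM, which encodes the peptide adrenomedullin, stood at 404 in siNT, 409 in siSET and 507 in siCIP2A, with 302 in PBS and 354 in OP449. PBS was the lowest, and siNT was above it by 0.42 [0.19 to 0.66]. PDK2, a kinase that restrains pyruvate dehydrogenase, stood at 318 in siNT, 496 in siSET and 420 in siCIP2A, with 422 in PBS and 406 in OP449. Here siNT was the low library: PDK2 was 1.56-fold higher in siSET than in siNT, at 0.64 [0.40 to 0.89], but at 0.23 against PBS. The demethylase gene KDM3A and WSB1, a ubiquitin ligase component, were highest in siCIP2A, at 0.25 [0.12 to 0.37] and 0.38 [0.25 to 0.51] against siNT.

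OP449 was the treatment in which the most members stood on one side of the control. Of the 33 members past the floor, 27 were below PBS, against 46.3% of all 6096 genes. A counting interval wholly below equality was found for 20 of them, against 16.9% of all genes. An interval wholly above was found for 4 members, against 19.3%. The 17 enzymes past the floor included 16 below PBS, all but HK1, and their median log2 fold was -0.21. The 16 other members had a median of -0.13, with 11 below, and all genes had a median of 0.02. At least 1.5-fold lower were 2 members, ALDOC and CA12, against 1.77% of genes, and 0 were at least 1.5-fold higher, against 1.98%. BNIP3 at -0.56 and HK2 at -0.55 came just short of that limit.

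Intervals narrow with depth, and the members are abundant genes. Among genes with a mean of at least 1000 scaled counts, a limit added after the data were seen, 29.9% of 1621 had an interval below equality in OP449. Of the 24 members there, 17 did, or 70.8%, and of the 14 enzymes 11 did. The median log2 fold of the 24 was -0.18, and that of all 1621 genes -0.01.

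OP449 was also the lowest of all 5 libraries for 24 of 33 members and for 14 of 17 enzymes. Over 6093 genes with a mean of at least 50, OP449 was the lowest for 21.1%. It was the highest for 25.3% of genes and for 1 member, EGLN2. This count uses the siRNA libraries too, which differ from OP449 in time and in handling.

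**Figure D3:**
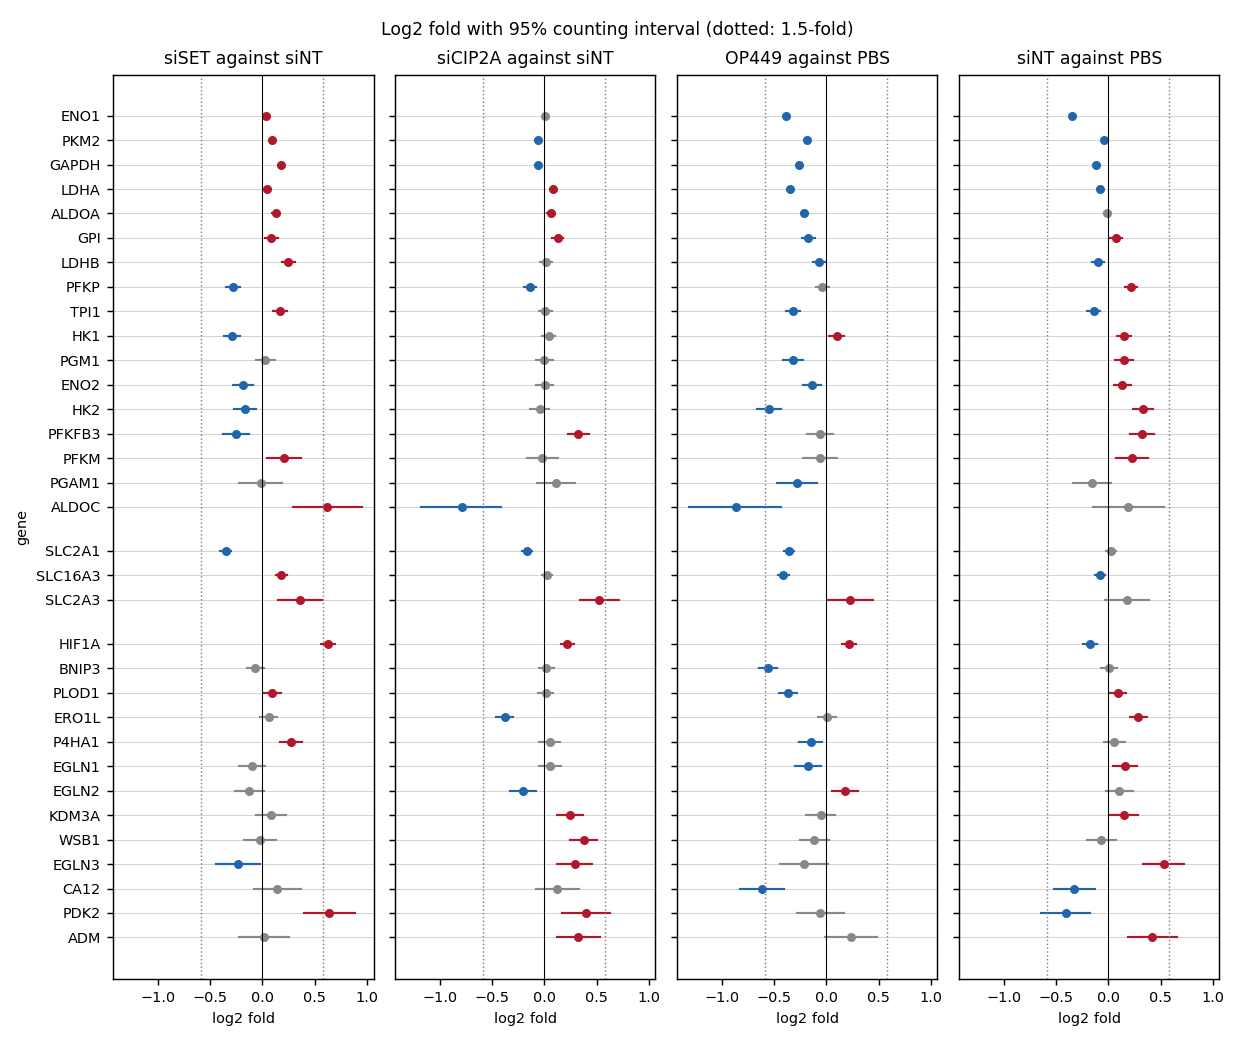
Log2 folds of the 33 genes above the floor in the 4 comparisons, with 95% counting intervals. Blue marks an interval below equality, red one above and grey one that spans it, and dotted lines mark 1.5-fold. In OP449 against PBS, 20 genes are blue and 4 red, whereas siSET has 7 blue and 16 red.

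In siSET the members did not share a direction. Of 33, 3 were at least 1.5-fold above siNT, against 2.84% of 6084 genes: HIF1A, PDK2 and ALDOC. None was as far below, against 4.31%. Intervals lay above equality for 16, against 19.8%, and below for 7, also against 19.8%. Among genes with a mean of at least 1000, 12 of 25 members lay above, against 29.1% of genes, and 6 below, against 28.9%. The enzymes above were in the main the abundant ones, from LDHB at 0.25 and GAPDH at 0.18 to ENO1 at 0.04. HK1, PFKP, PFKFB3, ENO2 and HK2 had intervals below. For these, siNT stood above PBS, from 0.13 for ENO2 to 0.33 for HK2. Among the enzymes above, siNT stood below PBS for LDHB, GAPDH and ENO1, at -0.10, -0.12 and -0.35. It was also below PBS for TPI1, LDHA and PKM2, at -0.14, -0.08 and -0.04, and level for ALDOA, at -0.01 [-0.04 to 0.02]. Only for PFKM, ALDOC and GPI did siNT stand above PBS, at 0.23, 0.19 and 0.07. Against PBS, siSET was higher for HK2, at 2003 against 1791, and lower for ENO1, at 45743 against 56791. It stayed lower for HK1, at 3572 against 3937, and higher for GAPDH, at 32649 against 31355. The median log2 fold was 0.04 for enzymes and 0.07 for the other members, against 0.01 for all genes. Of the 3 members at least 1.5-fold above siNT, ALDOC alone was at least 1.5-fold higher against PBS too.

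In siCIP2A, ALDOC was the 1 member at least 1.5-fold lower, against 3.33% of 6102 genes, and 0 were as far above, against 2.75%. Intervals lay above equality for 11 members, against 21.3%, and below for 7, against 20.2%. Among genes with a mean of at least 1000, the members above were 7 of 25, or 28%, against 28.0% of genes. In that group 6 lay below, against 32.7%. For those 25 the share above was thus that of other abundant genes. SLC2A3, PDK2, ADM and EGLN3, also above, had lower means and lie outside this count. Of the 11 members with an interval above equality, 4 were enzymes (PFKFB3, GPI, LDHA and ALDOA), and 7 were SLC2A3, PDK2, WSB1, ADM, EGLN3, KDM3A and HIF1A. The enzyme median was 0.00, and with rescaling by the median of ratios it was -0.02, so no direction is read from it. The median of the other members was 0.09, against 0.02 for all genes. With PBS as the control, 4 members were at least 1.5-fold higher: EGLN3 at 0.82, ADM at 0.75, SLC2A3 at 0.70 and PFKFB3 at 0.65.

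The 2 controls give the size of difference found without a treatment of interest, although they differ in time and handling. Between siNT and PBS, 0 members were at least 1.5-fold higher, against 1.63% of 6076 genes, and 0 lower, against 1.40%. Intervals lay above equality for 14, against 17.7%, and below for 10, against 17.6%. Of 25 members with a mean of at least 1000, 11 lay above, against 28.4% of such genes, and 8 below, against 27.7%. The members' folds ran from -0.41 for PDK2 to 0.53 for EGLN3, with medians of 0.07 for enzymes and 0.08 for the others. Single genes differed between the controls by as much as -0.35 for ENO1, -0.41 for PDK2 and 0.42 for ADM.

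**Figure D4:**
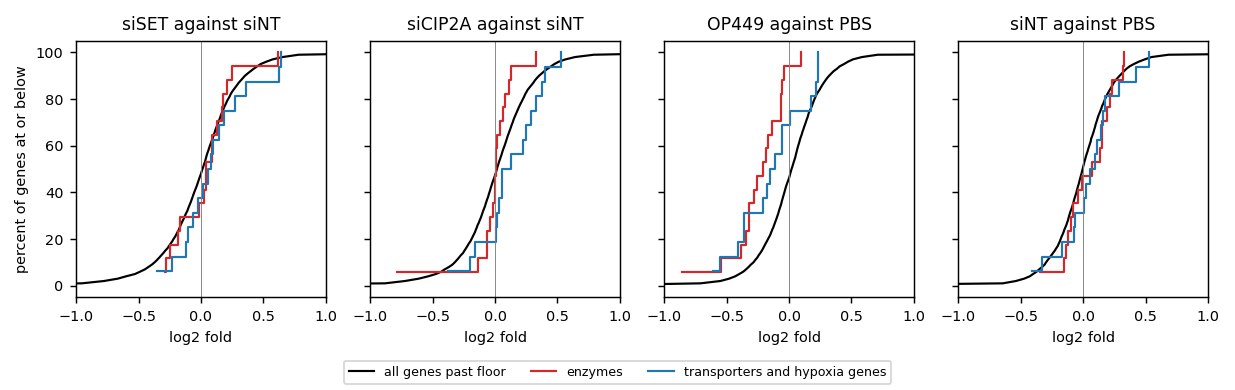
Cumulative percent of genes at or below each log2 fold, for all genes past the floor (black), the 17 enzymes (red) and the 16 transporters and hypoxia genes (blue), cut at 1 in either direction. In OP449 the red line lies left of the black one, with medians of -0.21 and 0.02, and in siCIP2A the blue line lies mostly right of it, with a median of 0.09.

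Genes of neighbouring pathways were read from lists of related genes that are not members. Those lists, too, were chosen with earlier results of these data known. Of 11 other hypoxia-induced genes past the floor in OP449, 9 were below PBS, against 46.3% of all genes, and 8 had an interval below equality, against 16.9%. The median was -0.40. INSIG2, a regulator of sterol synthesis, stood at 625 against 1035, at -0.73 [-0.89 to -0.57]. PPFIA4 was at -0.65 [-1.02 to -0.30] and RAB20 at -0.63 [-1.06 to -0.22]. ANGPTL4, which inhibits lipoprotein lipase and is also induced by other factors than HIF, went the other way, at 165 against 18.1 and 3.12 [2.43 to 4.03]. It had 128 reads in OP449 and 16 in PBS, and passed the floor only through OP449. The siNT library, with 40 reads, stood above PBS by 1.34 [0.52 to 2.32], a pair under the floor. Against siNT, ANGPTL4 was at 1.11 [0.58 to 1.70] in siCIP2A, with 94 reads. This pair passed the floor only through siCIP2A, at 104 scaled counts, since siNT stood at 47.4. In siSET it was at -1.29 [-2.44 to -0.34], with 11 reads and under the floor. In siSET the 10 genes of this list past the floor had a median of -0.09, and in siCIP2A of -0.06.

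All 5 pentose phosphate genes were below PBS in OP449, against 46.3% of all genes, and 4 had an interval below equality, against 16.9%. Their median was -0.14. Among genes with a mean of at least 1000, where 3 of the 5 lie, 29.9% had such an interval. In siSET the pentose phosphate genes had a median of 0.20 against siNT, with 3 of 5 intervals above equality, against 19.8%. Those 3 were the genes with a mean of at least 1000, where 29.1% of genes had such an interval. For this list siNT stood below PBS, at a median of -0.18, with 3 of 5 intervals below equality, against 17.6%. The siSET and PBS values were 2155 and 2043 for PGD, 2838 and 2795 for TALDO1, and 2119 and 1756 for H6PD. Of the HIF pathway regulators, 2 of 7 were below PBS in OP449, against 46.3% of all genes, with a median of 0.08. The other glycolysis isoenzymes had 4 genes past the floor, all above PBS in OP449, with a median of 0.15 and no interval free of equality. One of them, HKDC1, a further hexokinase, stood at 777 in siNT, 465 in siSET and 1103 in siCIP2A, at -0.74 [-0.95 to -0.53] and 0.50 [0.36 to 0.65]. For HKDC1, PBS at 796 and OP449 at 854 lay close to siNT.

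For pyruvate entry into mitochondria, 3 of 6 genes were below the control in siSET, against 47.9% of all genes, 3 in OP449, against 46.3%, and 5 in siCIP2A, against 47.3%. PDHX, a component of pyruvate dehydrogenase, was at -0.74 [-0.95 to -0.54] in siSET and -0.46 against PBS. Of 6 glycogen genes, 2 were at least 1.5-fold lower in siSET, PGM2L1 at -0.82 [-1.28 to -0.40] and PPP1R3C at -0.70 [-1.33 to -0.11], against 4.31% of all genes. Against PBS neither was 1.5-fold lower, with PGM2L1 at -0.33 and PPP1R3C at -0.48, and for PGM2L1 siNT stood above PBS by 0.49 [0.14 to 0.85]. PGM2L1 was higher in OP449, at 0.61 [0.26 to 0.97]. On the list of other sugar and lactate carriers, 1 of 5 genes passed the floor, with log2 folds from -0.08 to 0.00. That gene, named after its values were seen, was BSG, an accessory protein of lactate carriers and not itself a carrier. The carriers measured on this list stayed under the floor.

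The last list held the glucose-sensing factor MondoA, a partner and their targets. TXNIP, a target that restrains glucose uptake, stood at 5662 in siNT, 9388 in siSET and 9826 in siCIP2A, with 6176 in PBS and 10189 in OP449. Both controls were below all 3 treated libraries, with log2 folds of 0.73, 0.80 and 0.72. ARRDC4, its relative, was at 0.61 [0.23 to 1.01] in siCIP2A and 0.67 [0.29 to 1.06] in OP449, but at 0.11 [-0.37 to 0.58] in siSET. Of the 4 genes of this list, 3 had an interval above equality in siCIP2A, against 21.3% of all genes, and 3 in OP449, against 19.3%. In siSET 2 did, against 19.8%. MLX, the partner, named after its values were seen, was at 0.02 [-0.11 to 0.15] in siCIP2A and 0.01 [-0.11 to 0.14] in OP449.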

How the data were processed

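RNA from MDA-MB-231 cells was reverse transcribed with oligo-dT and sequenced on an Illumina GAII, per the labels' protocols. The authors deposited 1 signal value for each RefSeq transcript (here scaled counts), already on a common scale. The submitters' processing notes name hg19, CASAVA and Bowtie 1.0.0. For the scaling method, the counter and its use of strand, the sources used here give nothing.

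Dividing by the smallest value above 0 gave whole numbers for 100% of values in each library (tolerance 0.001 reads), so reads were recovered. A read was worth 1.10 to 1.71 scaled counts, and a count of 0 allows up to 3 reads (3.31 to 5.13 scaled counts). The 15 symbols stored as dates were restored by accession. The table holds 16383 rows from part of the genome.

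Log2 folds used log2(value + 1) over genes with a mean of at least 50 in the pair. Such folds understate low genes. Intervals are exact Clopper-Pearson from reads, cover counting error only, and compare libraries. They were run on reads simulated with the same counting error that they assume and without variation between cultures. That run can check only the computation. Transcript lengths came from GENCODE 29 and can differ from the authors' models. All members measured were named, and non-members where at least 1.5-fold in a comparison. Members and lists were chosen with earlier results of these data known. Python 3.11.15, pandas 2.3.3 and scipy 1.17.1 were used.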

Additional observations from a re-analysis of the deposited data

How the results depend on the processing

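No paired analysis was possible because each group holds 1 library. Of the group values recomputed, 237 stayed within their counting interval or within 1.5 times the reported count and 31 did not. For single genes these numbers were 1131 and 65, 59 of the 65 with PBS as the control, and no gene past 1.5-fold changed direction. Every scaling left 16 of 17 enzymes below PBS in OP449. A threshold of 2-fold left 0 members in every comparison. A lower threshold, a log2 fold of 0.32, gave 9 lower in OP449, and 4 higher and 1 lower in siSET. It also gave 5 higher and 2 lower in siCIP2A, and 4 higher and 3 lower in siNT. Without a floor, ENO3 or SLC16A1 added 1 lower member in siSET and 1 higher in siCIP2A, OP449 and siNT, and ENO3 did so in siCIP2A with a floor of 20 or summed transcripts. With a floor of 200, which removes ALDOC, 1 member was lower in OP449 and 0 in siCIP2A. With a floor of 1000, added after the data were seen, 1 was higher in siSET, 0 lower in siCIP2A and OP449, and 7 intervals lay above equality in siCIP2A. Equal totals left 1 lower in OP449, since CA12 stood at -0.58, just short of 1.5-fold. With PBS as the control, siSET had 1 higher member, 4 intervals below equality and a median of 0.21 for the non-enzymes, and siCIP2A had 4 higher, 17 intervals above equality and an enzyme median of 0.0505. The siCIP2A enzyme median was -0.0176 after scaling by the median of ratios, and the enzyme mean was -0.0197. The OP449 enzyme mean was -0.24. Depth limits ALDOC, ENO3 and SLC16A1 most.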
